A study of Mus musculus with 4 samples.

Results

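The 7 genes described here encode G protein-coupled receptors that guide T cells out of lymphoid organs, within them, or into the gut and skin. They are S1pr1, S1pr4, Gpr183, Gpr83, Gpr15, Ccr9 and Ccr10, chosen by name from the gene column of the deposited tables. All 7 had a value, out of 14198 genes with a value in any library. They held 8 transcript rows, because Ccr9 had 2, and the row with the highest mean was used for each gene.

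The libraries came from regulatory T (Treg) cells, a suppressive T cell lineage defined by Foxp3, sorted from the spleen of C57BL/6 mice. There were 2 libraries from mice with a conditional knockout of Nsd2 in Treg cells (cKO) and 2 from wild-type (WT) mice. RNA of at least 3 mice was combined in each library, so n counts pools, and the spread between pools may be partly technical. The labels name neither the Cre driver nor the deleted exons, and they give no age or treatment. Nsd2 encodes a histone H3 methyltransferase.

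T cells leave lymphoid organs along a gradient of sphingosine 1-phosphate (S1P), a lipid that is high in blood and lymph and low in tissue. S1PR1 is the main receptor that reads this gradient on T cells, and CD69 binds it and takes it off the surface. GPR183 senses oxysterols and places cells within spleen and lymph node, while GPR15 and CCR9 are receptors of entry into the large and the small intestine and CCR10 is linked to skin and other epithelia.

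Values were RPKM, which scale the reads of a transcript by its length and by library depth. The depth estimated from the steps between low values was 19108000 to 21234000 reads per library. Nsd2, which the tables name Whsc1, stood at 3.46 and 4.27 RPKM in the cKO libraries and at 6.82 and 7.44 RPKM in the WT libraries. Both cKO libraries lay below both WT libraries, with transcript remaining in each. The 8 Treg markers examined summed to 1080 and 1130 RPKM in cKO and to 1070 and 1090 RPKM in WT, and Foxp3 itself stood at 145 and 113 RPKM in cKO and at 144 and 128 RPKM in WT.

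The order of the 7 receptors by mean RPKM was the same in both genotypes. S1pr1 was highest, followed by S1pr4, Gpr83, Gpr183, Gpr15, Ccr9 and Ccr10. Within each genotype the libraries of neighbours in this order did not overlap. The closest gap in cKO was between S1pr1 and S1pr4, whose means differed 1.51-fold, while in WT both that step and the step from S1pr4 to Gpr83 were 1.44-fold. S1pr1 lay above 97.7% of the genes in cKO and 97.8% in WT, whereas Ccr10 lay above 25.5% in cKO and 20.1% in WT. Gpr15 differed most in this ranking, lying above 58.9% of the genes in cKO and 47.5% in WT.

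**Figure D1:**
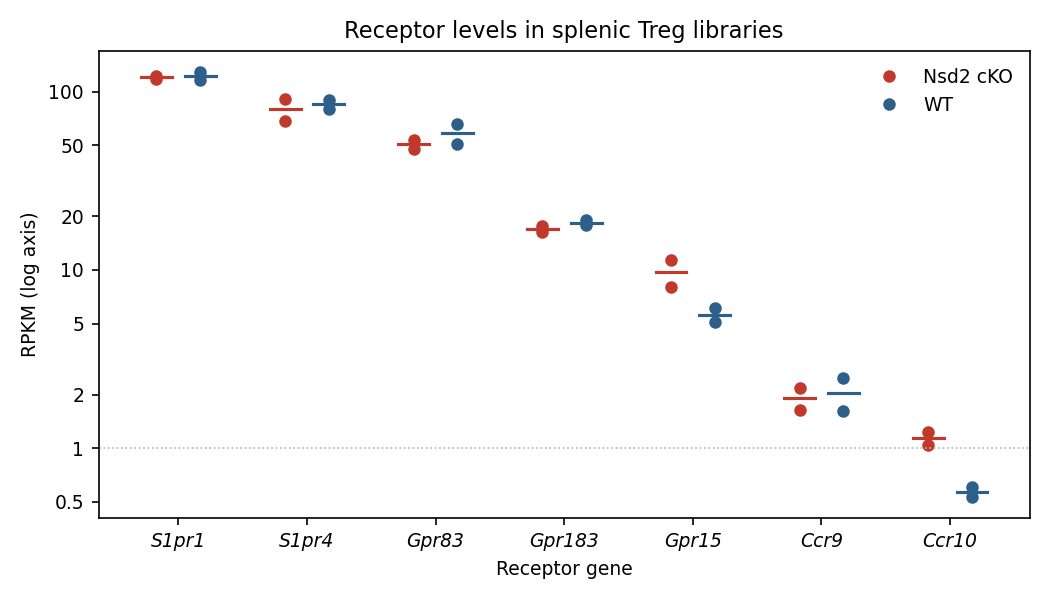
RPKM of the 7 receptor genes on a log axis, with 1 point per library (2 Nsd2 cKO and 2 WT) and a bar at each mean; the dotted line marks 1 RPKM. Levels run from about 120 RPKM for S1pr1 to about 1 RPKM or less for Ccr10, and the points of the genotypes separate upward for Gpr15 and Ccr10.

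Of the 7 receptors, 6 had a mean of at least 1 RPKM and entered the test, limma on log2(RPKM + 1) over 10693 genes, and none of the 6 passed. Over all genes tested, 0 passed at an adjusted p of 0.05 in either direction (0.0% higher and 0.0% lower), and 332 had an unadjusted p under 0.05 (3.1%), Gpr15 among them. Among the tested receptors, Gpr15 was higher in each cKO library than in either WT library, a pattern that 17.4% of all tested genes shared. Gpr183 was lower in each cKO library than in either WT library, as were 9.06% of all tested genes. Log2 fold changes on this scale, which understates changes of low genes, were above 0 for 1 of the 6 receptors and below 0 for 5, with a median of -0.08. Over all tested genes 59.2% were above 0, with a median of 0.03, and with median-of-ratios scaling 45.5% were above 0, with a median of -0.01. In bulk RNA such as this, fewer cells carrying a transcript and less transcript per cell cannot be told apart.

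**Figure D2:**
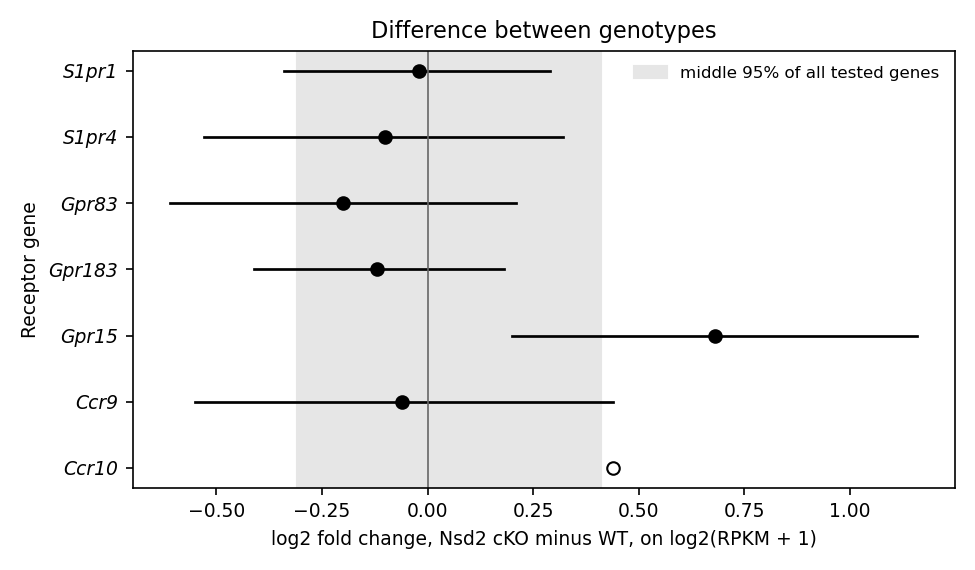
Log2 fold change of each receptor, Nsd2 cKO minus WT on log2(RPKM + 1), with limma's 95% interval; the open circle is Ccr10, which was under the level tested and has no interval, and the grey band holds the middle 95% of all tested genes (-0.31 to 0.41). The interval of Gpr15 lies above 0 before adjustment, and the intervals of the other 5 tested receptors include 0.

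The S1P receptors were the most abundant of these genes and their levels overlapped between genotypes. S1pr1 (NM_007901.5; GRCm38 chromosome 3, 115710433 to 115715055, minus strand) stood at 118 and 123 RPKM in the cKO libraries and at 116 and 129 RPKM in the WT libraries. Both cKO values lay between the WT values. Mean levels were 120 ± 3.28 RPKM in cKO and 122 ± 9.82 RPKM in WT (SD, n = 2 each), a ratio of 0.983. The log2 fold change was -0.02 with a standard error of 0.13 and a 95% interval of -0.34 to 0.29 (limma, adjusted p = 0.9998).

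S1pr4 (NM_010102.2; chromosome 10, 81497745 to 81500137, minus strand) encodes the S1P receptor largely restricted to blood and lymphoid cells. It stood at 90.6 and 68.6 RPKM in cKO and at 89.7 and 80.0 RPKM in WT. The cKO libraries held both the highest and the lowest value, so the groups overlapped. The means were 79.6 ± 15.6 RPKM in cKO and 84.8 ± 6.85 RPKM in WT (SD, n = 2 each), and the difference was smaller than either SD. The log2 fold change was -0.10 with a 95% interval of -0.53 to 0.32 (limma, adjusted p = 0.9998).

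Gpr183 (NM_183031.2; chromosome 14, 121952331 to 121965193, minus strand) was slightly lower in both cKO libraries. It stood at 16.4 and 17.6 RPKM in cKO and at 17.9 and 19.0 RPKM in WT. The groups did not overlap, but the nearest cKO and WT libraries were closer to each other than the libraries within either genotype. The means were 17.0 ± 0.903 RPKM in cKO and 18.5 ± 0.781 RPKM in WT (SD, n = 2 each), a ratio of 0.919. The log2 fold change was -0.12 with a standard error of 0.12 (limma, adjusted p = 0.9998). Gpr183 lies within Ubac2 on the opposite strand without sharing exon bases in GENCODE M21, and Ubac2 stood at 36.1 and 35.6 RPKM in cKO and at 38.8 and 33.2 RPKM in WT.

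The DNA just before the annotated starts of S1pr4 and Gpr183 is shown to set side by side the upstream sequence of an abundant and a moderately expressed receptor, both with the coding sequence in 1 exon. In GENCODE M21 this also holds for S1pr1 and Gpr15, whereas the coding sequence of Ccr9 and Ccr10 spans 2 exons and that of Gpr83 spans 4. The sequences are from RefSeq (GRCm38.p6), sense strand, and end 3 bases before the RefSeq start. Capitals mark the letters CACCC, a core motif of KLF factors, read on either strand.
S1pr4, chr10:81500140-81500387, minus strand: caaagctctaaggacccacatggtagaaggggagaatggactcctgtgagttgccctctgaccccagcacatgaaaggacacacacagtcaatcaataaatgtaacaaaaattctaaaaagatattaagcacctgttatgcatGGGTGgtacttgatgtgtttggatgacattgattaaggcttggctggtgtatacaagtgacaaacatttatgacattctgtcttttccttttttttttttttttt
Gpr183, chr14:121965196-121965443, minus strand: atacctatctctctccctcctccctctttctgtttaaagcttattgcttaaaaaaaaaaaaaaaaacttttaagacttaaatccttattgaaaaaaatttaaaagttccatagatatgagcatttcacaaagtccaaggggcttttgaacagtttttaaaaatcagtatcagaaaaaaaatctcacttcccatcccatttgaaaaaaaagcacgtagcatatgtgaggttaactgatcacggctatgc

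Both runs are rich in A and T (61.7% for S1pr4 and 68.1% for Gpr183), and each holds a run of 17 identical A or T bases. S1pr4 has 0 CpG dinucleotides in these 248 bases and Gpr183 has 2. CACCC occurs 1 time before S1pr4 and 0 times before Gpr183, and 51.0% of 27025 promoter windows of this length hold it on either strand. The RUNX motif ACCACA (in 14.1% of windows), the AHR core GCGTG (28.0%) and the retinoic acid receptor motif AGGTCA (13.8%) were absent from both runs. These runs do not stand for all the receptors. The window of Gpr83, which lies inside the RefSeq span given for that gene below, was 66.9% G or C with 18 CpG and 1 AHR core. Promoter windows of S1pr1 and Ccr10 were not used here.

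Gpr83 (NM_010287.2; chromosome 9, 14859880 to 14870789, plus strand) encodes a receptor whose transcript is known to be enriched in mouse Treg cells. It stood at 53.6 and 48.0 RPKM in cKO and at 66.3 and 51.2 RPKM in WT. WT replicate 1 was the highest of the 4 libraries and the other WT library lay between the cKO libraries. Mean levels were 50.8 ± 4.02 RPKM in cKO and 58.7 ± 10.6 RPKM in WT (SD, n = 2 each), a ratio of 0.865 with a difference smaller than the WT SD. The log2 fold change was -0.20 with a 95% interval of -0.61 to 0.21 (limma, adjusted p = 0.9998). Without WT replicate 1 the log2 fold change was -0.01.

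Gpr15 (NM_001162955.1; chromosome 16, 58716643 to 58718872, minus strand), which directs T cells and Treg cells to the large intestine, had the largest difference of the tested receptors. It stood at 11.4 and 8.06 RPKM in the cKO libraries and at 6.12 and 5.10 RPKM in the WT libraries. The lower cKO value exceeded the higher WT value. The means were 9.71 ± 2.34 RPKM in cKO and 5.61 ± 0.719 RPKM in WT (SD, n = 2 each), a ratio of 1.73. A cKO mean at least 1.5 times the WT mean was seen in 2.24% of tested genes. At the estimated depths these levels stand for about 357 and 280 reads in cKO and about 195 and 160 reads in WT. These read numbers use the GENCODE M21 length of 1638 nt. The RefSeq span of Gpr15 differs from it at both ends, so they are approximate.

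On the log2(RPKM + 1) scale the fold change of Gpr15 was 0.68 with a standard error of 0.19 and a 95% interval of 0.20 to 1.16. Its absolute size exceeded that of 98.9% of the tested genes. The unadjusted p was 0.0136 and the value adjusted over all genes was 0.9998 (limma), so the difference did not pass. Leaving out cKO replicate 2, the lower of the cKO libraries, gave a log2 fold change of 0.91. It was 0.46 without cKO replicate 1, 0.79 without WT replicate 1 and 0.57 without WT replicate 2. In the settings with all 4 libraries, the lowest adjusted p of Gpr15 was 0.0974 (limma, with the replicate number as a block), which did not pass. Fits without 1 library leave 1 genotype with a single library, so only their log2 fold changes are given.

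Markers of other cell types were set beside Gpr15. The B cell markers measured, 5 of 8 listed, summed to 11.9 and 11.1 RPKM in cKO and to 8.75 and 6.98 RPKM in WT. Most of this sum was Cd79b, at 8.03 and 7.14 RPKM in cKO and at 5.56 and 4.23 RPKM in WT. Cd79a and Cd22 were also higher in both cKO libraries, while Blk and Cr2, both below the level tested, overlapped. None of the 5 was at 0 in any library, and the defining markers Ms4a1 and Pax5 were not analysed here. No transcript row of any gene was at 0 in all 4 libraries. Being above 0 therefore says little about the presence of any cell type whose markers are given here. The myeloid and dendritic markers measured, 9 of 10 listed with none at 0, summed to 19.3 and 7.47 RPKM in cKO and to 7.57 and 10.4 RPKM in WT. The highest sum and the highest Gpr15 were both in cKO replicate 1. The lowest sum was in cKO replicate 2. The part of B cell, myeloid and dendritic RNA in the Gpr15 difference was not tested.

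An exon of Gpr15 shares 204 bases with Cpox on the opposite strand in GENCODE M21, and no source used here says whether strand entered the counting. Cpox, an enzyme of heme synthesis, stood at 9.71 and 9.84 RPKM in cKO and at 8.77 and 9.97 RPKM in WT, and its groups overlapped. The annotated start of Gpr15 differs between RefSeq and GENCODE M21. The bases before the earlier, GENCODE start are shown because this is the receptor with the largest tested difference; they are 76.9% A or T with 0 CpG.
Gpr15, chr16:58719071-58719122, minus strand: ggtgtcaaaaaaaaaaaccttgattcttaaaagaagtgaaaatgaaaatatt

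Ccr9 (NM_009913.6; chromosome 9, 123767211 to 123783457, plus strand), the receptor for Ccl25 and a receptor of entry into the small intestine, was low and overlapped between genotypes. It stood at 1.64 and 2.17 RPKM in cKO and at 1.61 and 2.48 RPKM in WT. Each genotype had 1 library near the lower and 1 near the upper of these values. The means were 1.91 ± 0.381 RPKM in cKO and 2.04 ± 0.611 RPKM in WT (SD, n = 2 each). The log2 fold change was -0.06 with a 95% interval of -0.55 to 0.44 (limma, adjusted p = 0.9998). Its other transcript row, NM_001166625.1, stood at 1.62 and 2.14 RPKM in cKO and at 1.59 and 2.45 RPKM in WT, nearly the same values, so it is no separate measurement. Siglech, a marker of plasmacytoid dendritic cells, which also carry Ccr9, stood at 0.108 and 0.0981 RPKM in cKO and at 0.0855 and 0.131 RPKM in WT.

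Ccr10 (NM_007721.4; chromosome 11, 101172998 to 101175443, minus strand), the receptor for Ccl27 and Ccl28, was the lowest of the receptors and was below the level tested. It stood at 1.24 and 1.04 RPKM in cKO and at 0.535 and 0.605 RPKM in WT. The groups did not overlap. The means were 1.14 ± 0.142 RPKM in cKO and 0.570 ± 0.050 RPKM in WT (SD, n = 2 each), a ratio of 1.99. Of the tested genes, 17.4% had both cKO libraries above both WT libraries and 2.24% had a ratio of at least 1.5. Those shares leave out genes as low as Ccr10, for which no share was computed.

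These values of Ccr10 rest on few reads. They stand for about 41 reads (95% exact Poisson interval 29.4 to 55.6) and 38 reads (26.9 to 52.2) in the cKO libraries. In the WT libraries they stand for about 18 reads (10.7 to 28.4) and 20 reads (12.2 to 30.9). The intervals cover counting error only, and they separate cKO replicate 1 from WT replicate 1 but overlap between the closer libraries. When genes of every level were tested, the log2 difference of Ccr10 was 0.44 and limma's adjusted p was 0.973, which did not pass. Plasma cells are another known source of Ccr10. Among their markers, Jchain stood at 0.198 and 0.179 RPKM in cKO and at 0.268 and 0.273 RPKM in WT, and Sdc1 at 0.204 and 0.169 RPKM in cKO and at 0.134 and 0.0342 RPKM in WT. As a list, the 4 of 5 plasma cell markers measured, none at 0, summed to 37.4 and 33.0 RPKM in cKO and to 36.1 and 37.2 RPKM in WT. Nearly all of this sum was Xbp1, a factor of the unfolded protein response, at 32.6 and 28.7 RPKM in cKO and at 31.9 and 33.3 RPKM in WT, so the sum says little about plasma cells. Cntnap1, which overlaps Ccr10 on the opposite strand without sharing exon bases, stood at 0.699 and 0.342 RPKM in cKO and at 0.134 and 0.244 RPKM in WT. It was also higher in both cKO libraries, and its part in the Ccr10 values was not tested.

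**Figure D3:**
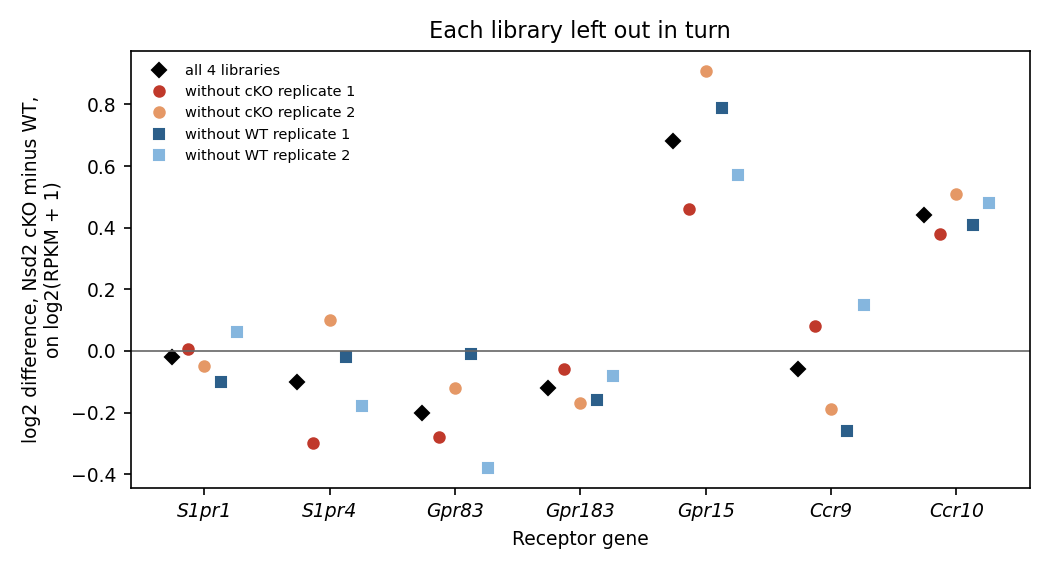
Log2 difference of each receptor, Nsd2 cKO minus WT on log2(RPKM + 1), with all 4 libraries (diamonds) and with each library left out in turn (circles for cKO, squares for WT). Gpr15 (0.46 to 0.91) and Ccr10 (0.38 to 0.51) stay above 0 and Gpr183 (-0.17 to -0.06) and Gpr83 (-0.38 to -0.01) below it, while S1pr1, S1pr4 and Ccr9 fall on both sides.

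The sign of the difference held for some receptors and not for others when single libraries were left out. Gpr15 and Ccr10 stayed above 0 and Gpr183 and Gpr83 below 0 in each of the 4 omissions. The sign of S1pr1 and Ccr9 turned without cKO replicate 1 and without WT replicate 2, and that of S1pr4 turned without cKO replicate 2. For Gpr15, Ccr10 and Gpr183 a constant sign follows from groups that do not overlap and adds nothing to that.

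The genes whose profile over the 4 libraries lay nearest to each tested receptor were of mixed kinds, with likeness given as the distance between centred log2(RPKM + 1) profiles among genes of at least 4 RPKM. For S1pr1 they were Igtp (distance 0.011), an interferon-inducible GTPase, and Zfp410 (0.013), and for S1pr4 Pla2g4b (0.017) and Usp21 (0.020). Those of Gpr183 were Gm10521 (0.013) and Atxn7 (0.020), and those of Gpr83 were Rbm45 (0.010) and 1700120B22Rik (0.020). For Ccr9 they were LOC100504438 (0.012) and Ywhaq (0.014). This distance is not scaled by the size of the changes, and the log2 fold change of Gpr15 exceeded that of 98.9% of tested genes in size. Few genes could therefore lie near it, whatever its pattern. Gpr15 had no gene as near as these. Its nearest were Rundc3a (distance 0.084), at 16.4 and 11.2 RPKM in cKO and 9.13 and 7.08 RPKM in WT, and Zbtb32 (0.090), a zinc finger repressor of activated lymphocytes, at 7.21 and 5.43 RPKM in cKO and 4.13 and 3.29 RPKM in WT. With 4 libraries such likeness describes these samples only.

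Around the S1P receptors, the other genes of the pathway went both ways and none passed. Of 20 genes listed, 16 had a value and 14 were tested, 7 above 0 and 7 below (6 and 8 with median-of-ratios scaling), and the median log2 fold change was near 0 (-0.00). Cd69, whose product takes S1PR1 off the surface, stood at 29.1 and 40.3 RPKM in cKO and at 42.9 and 46.9 RPKM in WT. Its groups did not overlap and its log2 fold change was -0.38 with a standard error of 0.18 (limma, unadjusted p = 0.0854). Plpp1, a lipid phosphate phosphatase that acts on S1P, stood at 1.01 and 1.73 RPKM in cKO and at 1.78 and 2.04 RPKM in WT. S1pr2, an S1P receptor that restrains migration, stood at 6.52 and 5.66 RPKM in cKO and at 5.79 and 4.88 RPKM in WT, and its groups overlapped. Klf2, the transcription factor that drives S1pr1 in T cells, stood at 232 and 171 RPKM in cKO and at 218 and 199 RPKM in WT. Like S1pr1, it overlapped between genotypes.

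For the ligands of these receptors little was measured in Treg cells. Of the 4 enzymes listed for the oxysterol ligand of GPR183, only Hsd3b7 had a value, at 2.82 and 1.96 RPKM in cKO and 2.63 and 2.15 RPKM in WT. Of 6 genes listed as ligands of the other receptors, 2 had a value and Ccl25 was tested, at 1.49 and 0.999 RPKM in cKO and 2.18 and 1.11 RPKM in WT. The groups overlapped for Hsd3b7 and Ccl25, and the Ccl25 value is that of a non-coding RefSeq transcript. Ccl27a, below the level tested, stood at 0.787 and 0.569 RPKM in cKO and at 0.853 and 0.869 RPKM in WT, without overlap.

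Among 15 tested partners of gut and skin homing, 12 were above 0 and 3 below, beside the 59.2% of all tested genes above 0. With median-of-ratios scaling 9 of the 15 were above 0, beside 45.5% of all tested genes. Their median log2 fold change was 0.07 and with that scaling 0.02, and 0 passed (limma). An unadjusted p under 0.05 was found for 3 of the 15, beside 3.1% of all tested genes. The groups did not overlap for 4 of them, all higher in cKO, against the 17.4% of all tested genes given above. The B cell markers given beside Gpr15 had a higher sum in both cKO libraries, though Blk and Cr2 overlapped. The part of B cell RNA in these values was not tested. Itgae, the integrin chain CD103 that holds T cells to gut epithelium, stood at 28.8 and 25.4 RPKM in cKO and at 17.7 and 14.8 RPKM in WT. Ccr4, a receptor of skin homing, stood at 19.7 and 17.8 RPKM in cKO and at 14.4 and 14.3 RPKM in WT. Both genes are among the 4 whose groups did not overlap. Itga4 and Itgb7, which form the gut homing integrin, had ratios of 1.06 and 1.02 and overlapped.

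Of 17 genes listed as possible regulators of these receptors, 15 were tested, 11 above 0 and 4 below. With median-of-ratios scaling 9 were above 0 and 6 below. Of all tested genes 59.2% were above 0, and with that scaling 45.5%. The median log2 fold change was 0.12, beside 0.03 for all tested genes, and with that scaling 0.07, beside -0.01. None passed (limma; 1 at an unadjusted p under 0.05). Ahr, the aryl hydrocarbon receptor, which activates Gpr15, stood at 6.31 and 5.93 RPKM in cKO and at 4.33 and 4.63 RPKM in WT. Its log2 fold change was 0.38 with a standard error of 0.13 (limma, unadjusted p = 0.0315). Rxra, the partner of retinoic acid receptors, stood at 8.36 and 7.68 RPKM in cKO and at 7.10 and 6.12 RPKM in WT, also without overlap (limma, unadjusted p = 0.13). The groups did not overlap for 4 of the 15, all higher in cKO, beside 17.4% of all tested genes.

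In the list of lymph node entry and retention, 6 of 7 tested genes were above 0, and with median-of-ratios scaling 4 of 7. The shares of all tested genes above 0 were 59.2% and 45.5%. The median was 0.05 on the log2 scale and with that scaling 0.01. With genotype alone in the model 0 passed (limma; 1, Cxcr4, at an unadjusted p under 0.05). Cxcr4, the receptor that retains cells at sources of Cxcl12, was the exception on the lower side, at 48.1 and 40.2 RPKM in cKO and at 102 and 94.6 RPKM in WT. The groups did not overlap, and the log2 fold change was -1.14 with a standard error of 0.14 (limma, unadjusted p = 0.000257, adjusted p = 0.9998). With the replicate number as a block Cxcr4 passed (limma, adjusted p = 0.0488). With single libraries left out its log2 fold change ranged from -1.27, without cKO replicate 1, to -1.01, without cKO replicate 2. Cxcr5, the receptor of B cell follicles, stood at 17.3 and 21.0 RPKM in cKO and at 16.6 and 17.1 RPKM in WT.

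**Figure D4:**
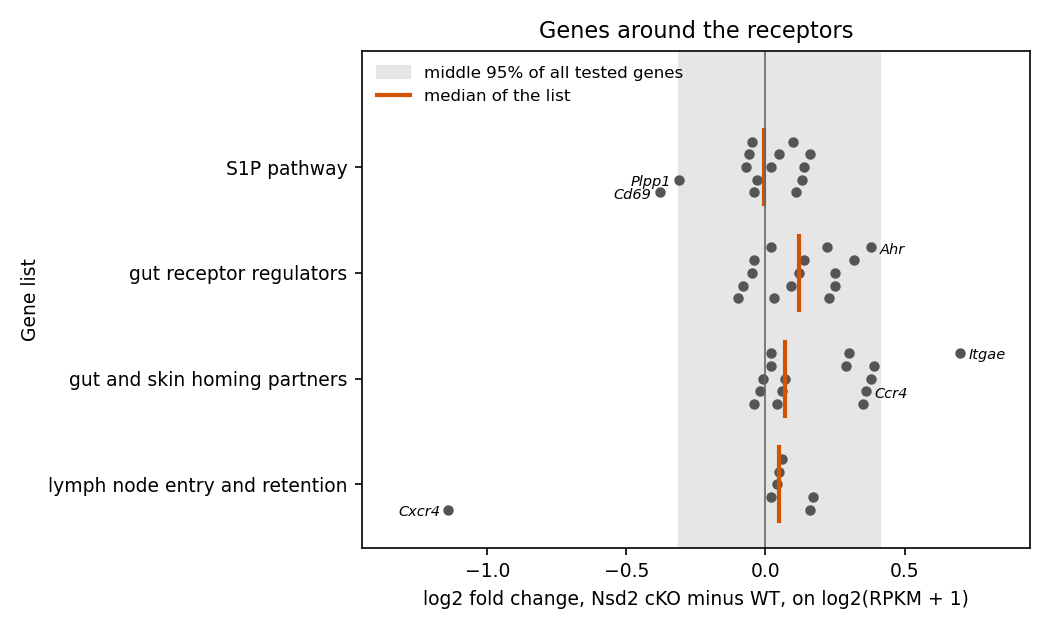
Log2 fold change, Nsd2 cKO minus WT on log2(RPKM + 1), of the tested genes in 4 lists around the receptors; each point is a gene, the bar is the median of its list, and the grey band holds the middle 95% of all tested genes (-0.31 to 0.41). Cxcr4 (-1.14) and Itgae (0.70) lie farthest from 0 on either side, and the medians run from -0.00 to 0.12.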

How the data were processed

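RNA-seq was measured in 2 Nsd2 cKO and 2 WT libraries of sorted splenic Treg cells, with reads of 50 nt. The authors deposited RPKM values per RefSeq transcript; the file headers name no unit, so the values themselves gave it. The tools HISAT2 and DESeq2 and the build mm10 are named in the submitters' processing notes without role or version. For the counting tool, strand and row filters, the submitters' notes used here give nothing.

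The tables had 19291 transcript rows. Gene names came from the accession for 16717 of them (RefSeq, GRCm38.p6) and from the file's own name for 1405. Left out of the tests were 1169 unnamed rows with 10.9% of the summed RPKM. The row of highest mean stood for each gene, and 10693 of 14198 genes had a mean of at least 1 RPKM and were tested. A two-sided limma test (3.58.1, in R 4.3.3) was run on log2(RPKM + 1) with genotype alone in the model and moderation with trend and robust settings; p-values were adjusted by Benjamini-Hochberg over all genes tested, with 0.05 as the threshold. It was tested on simulated data. Levels, SDs and ratios in the text are of RPKM itself. Depth was estimated from the steps of low values with GENCODE M21 transcript lengths; within a tolerance of 0.1 read, 59.4% to 60.3% of values from 1 to 20 reads were whole, against 20.0% by chance. Python 3.11.15, pandas 2.3.3 and matplotlib 3.10.9 served for the tables and figures.

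The receptors and the gene lists were chosen with earlier results of these data known. The genes named are the 7 receptors, Nsd2, at most 3 tested genes per list, those with the lowest p, and the 2 genes of nearest profile. The values of some genes that this rule names are not reported here. Klf2, Itga4, Itgb7, the overlapping genes and single marker genes were named for their role or position after their values were seen. Alternatives covered the pseudocount, filter, scaling, transcript row, moderation, replicate block and each library left out.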

Additional observations from a re-analysis of the deposited data

How the results depend on the processing

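With all 4 libraries, 0 genes passed under every setting of pseudocount, filter, scaling, transcript row and moderation. With a replicate block 1 gene passed, Cxcr4 (adjusted p = 0.0488 with limma), and with single libraries left out 21 to 66 genes passed; the genotype left with 1 library is then assumed to vary like the other. The labels do not say that a replicate number marks a shared batch. The differences between the libraries numbered 1 and 2 had a correlation of 0.503 over genes between cKO and WT, a hint from the data only. With the replicate block the log2 fold changes of the receptors are the same by construction, and none passed. Limma's adjusted p was then 0.0974 for Gpr15, 0.296 for Gpr83 and 0.419 for Gpr183. The unadjusted p was 0.000448 for Gpr15 and 0.0358 for Gpr83, and above 0.05 for the other tested receptors (limma). The sign of all 6 tested receptors was kept under the settings with 4 libraries that tested them; Ccr9 was not tested at a minimum mean of 4 RPKM. With single libraries left out the log2 fold changes ranged from -0.10 to 0.06 for S1pr1, -0.30 to 0.10 for S1pr4, -0.26 to 0.15 for Ccr9 and 0.46 to 0.91 for Gpr15. The log2 difference of Ccr10 was 0.88 with a pseudocount of 0.1 in place of 1, since the larger pseudocount shrinks changes of low genes. At these depths Ccr10 rested on 18 to 41 reads per library, which limits its precision.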
